A study of Sus scrofa with 12 samples.

Results

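The interaction of CCNB2 knockdown with embryo stage was measured in embryos of the pig (Sus scrofa) from in vitro fertilization. It is 1 contrast per gene, the stage difference of the si-CCNB2 arm (si-4c minus si-2c) minus that of the control arm (con-4c minus con-2c), and it drew on all 12 of the 12 SMART-seq libraries of the series. The control arm (con-2c, con-4c) and the si-CCNB2 arm (si-2c, si-4c) had 3 libraries per group, where con stands for a blank control and si for embryos injected with Si-CCNB2, a small interfering RNA that targets cyclin B2, and 2c and 4c are the stages in the library titles. Each library was a pool of several embryos, and its amplified cDNA gave between 27785233 and 39510908 counts. A positive interaction means that the log2 step from 2c to 4c was higher in the si-CCNB2 arm than in the control arm, and a negative one that it was lower. Calls needed an absolute interaction of 1 or more on the log2 scale and an adjusted p under 0.05 by the quasi-likelihood test of edgeR with Benjamini-Hochberg adjustment over 17995 genes.

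Limits of the labels bear on every value below. In all 12 libraries the tissue label named the other stage than the title. Reading the tissue labels throughout changes the sign of every interaction and of every stage difference, so that the directions given below trade places. Reading the title in one arm and the tissue label in the other gives the sum of the stage differences in place of their difference, so an exchange of stage labels in one arm and an effect of the knockdown on the stage difference cannot be told apart from these counts. For that sum, a contrast added after the data were seen, 174 genes were called higher (0.967% of the genes tested) and 51 lower (0.283%). The labels call the controls blank, while the methods of the study call them both normal and negative control, so the difference between the arms can include the injection. The methods describe injected negative controls, with pressure and volume kept close to those of the treated embryos. They do not say whether the controls of these libraries were among them. The methods speak of independent experiments in general and do not say which fertilizations the libraries of a group came from, and p-values then measure only the spread between these libraries, which may be technical. In pooled embryos, fewer cells of a kind and less RNA per cell cannot be told apart.

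In the first cell cycles an embryo lives on RNA and protein stored by the oocyte. These maternal transcripts are cleared while the embryo's own genome is switched on, a handover known as the maternal-to-zygotic transition, which in the pig centres on the 4-cell stage. CCNB2 is a B-type cyclin that activates CDK1 at entry into mitosis. A transcript that is cleared between the stages in controls has a negative stage difference there, and one that appears has a positive stage difference.

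The small interfering RNAs that the study designed against CCNB2 are shown because the knockdown arm rests on them. Both are written 5′ to 3′, and the capitals mark the 11 bases, from position 1 to 11, that Si-CCNB2-2 shares with the forward primer the study used to amplify CCNB2 mRNA. Each is 19 bases long, and the sources used here do not give which of them was injected for these libraries.
Si-CCNB2-1 (no capitals): gcagguccacuccaaguuu
Si-CCNB2-2 (shared bases in capitals): GCUUAUACCAGuucccaaa

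CCNB2 itself, the targeted gene, lies at chr1:112907047-112942218 (Sscrofa11.1) and was low in every si-CCNB2 library. Its level, in CPM (counts scaled by edgeR to a common library size with TMM factors), was 463, 487 and 444 CPM in con-2c, 40.7, 46.8 and 40.3 in si-4c, 510.4, 485 and 429 in con-4c and 17.8, 28.8 and 21.6 in si-2c. No si-CCNB2 library reached any control library at either stage. Within the control arm the libraries of the stages overlapped, and within the si-CCNB2 arm those of si-4c were all above those of si-2c. The stage difference on the log2 scale was 0.03 in the control arm and 0.91 in the si-CCNB2 arm, and the interaction was 0.88 ± 0.18 (SE, adjusted p = 7.89e-04) with a 95% interval from 0.49 to 1.26. It was therefore past the adjusted p but below the fold threshold, and without the second si-2c library it was 1.09 and called.

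Across the transcriptome, 1777 of 17995 genes had a positive interaction (9.87% of the genes tested) and 4050 a negative one (22.5%), 5827 in all (32.4%). The positive calls were abundant transcripts with modest differences: their median interaction was 1.4998 on the log2 scale, from a median stage difference of -0.84 in the control arm and 0.68 in the si-CCNB2 arm. The negative calls were mostly rare transcripts with large differences, with a median stage difference of 2.69 in the control arm and -2.49 in the si-CCNB2 arm. The highest group mean was 26.1 CPM at the median of the positive genes, 2.01 CPM at that of the negative genes and 3.80 CPM at that of all genes tested. Among the negative genes 1246 had a group without a single count, and with such groups set to a floor of 3 counts over the group their median interaction was -5.18. Of the negative genes 45.7% had no symbol in the table, against 21.2% of the positive genes and 33.0% of all genes tested.

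The balance of positive and negative calls depended on the scaling of the libraries, and the counts of both directions are read with that in mind. TMM factors moved with the groups: they were 0.852 to 0.962 in con-2c and 0.871 to 0.915 in si-4c, against 1.06 to 1.09 in con-4c and 1.12 to 1.21 in si-2c. With library totals in place of TMM the median interaction of all genes went from -0.23 to -0.88, positive calls fell to 574 and negative calls rose to 6048 (3.19% and 33.6% of the genes tested), so that positive genes made up 8.67% of the calls in place of 30.5%. No call changed sign, and 4624 of the 5827 calls were kept. Directions of gene groups below are therefore also given with library totals where they turn.

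**Figure D1:**
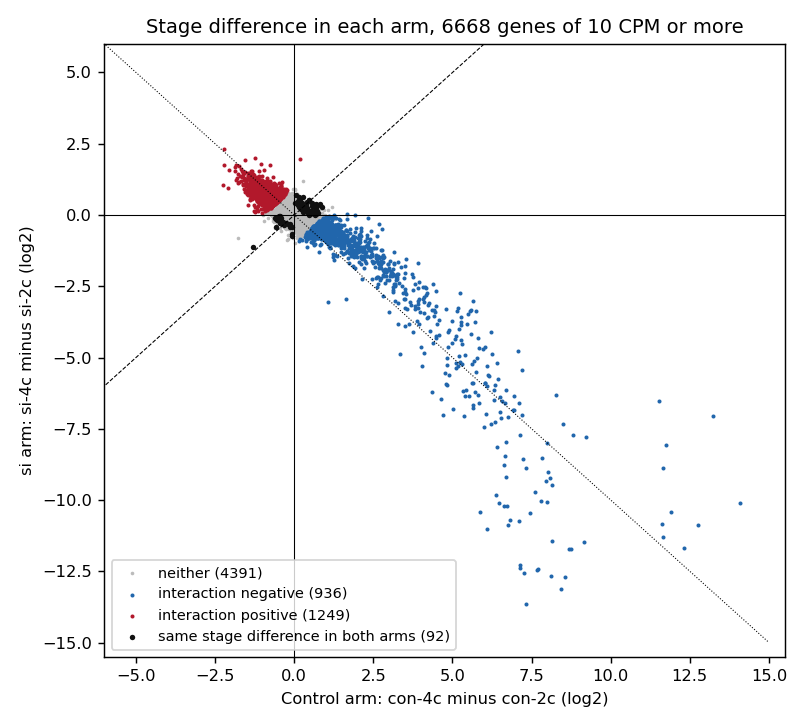
Stage difference in the control arm (horizontal axis, con-4c minus con-2c, log2) against that in the si-CCNB2 arm (vertical axis, si-4c minus si-2c, log2) for the 6668 genes with a group mean of at least 10 CPM, 1 point per gene. The dashed line marks equal differences and the dotted line equal and opposite ones. The 1249 positive genes had median stage differences of -0.81 in the control arm and 0.68 in the si-CCNB2 arm, near the dotted line. The 936 negative genes had medians of 1.47 and -0.86, off the dotted line and larger in size in the control arm. For these medians, groups without a count were set to the floor. The 92 genes with the same stage difference sit close to the origin.

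Genes that moved in both arms almost always moved in opposite directions. Of the positive genes, 163 were called lower at 4c in the control arm and higher in the si-CCNB2 arm, 367 were called in the control arm only, 89 in the si-CCNB2 arm only and 1158 in neither, where the threshold was met by the difference of the arms alone. Of the negative genes, 1614 were called higher at 4c in the control arm and lower in the si-CCNB2 arm, 925 in the control arm only, 479 in the si-CCNB2 arm only and 1032 in neither. Over all genes the control arm had 2598 genes called higher at 4c (14.4%) and 584 lower (3.25%), and the si-CCNB2 arm had 264 higher (1.47%) and 2136 lower (11.9%). At an adjusted p below 0.05 in each arm with no minimum fold, a classification added after the data were seen, 2284 genes were higher in the control arm and lower in the si-CCNB2 arm, 1658 the reverse, and 20 went the same way in both. The libraries of the stages did not overlap in either arm for 1382 of the positive genes (77.8%) and 2772 of the negative genes (68.4%), beside 30.0% of all genes tested. The call was made on these same libraries, so their separation largely follows from it, and the 30.0% includes the called genes.

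The size of the called sets can be given as a share of all counts in a library. These genes were called on the same counts with TMM scaling, so the contrast between the groups follows from the selection and adds no support. As a description of the called genes, the positive genes took 47.6 ± 2.02% in con-2c, 46.6 ± 0.526% in si-4c, 31.9 ± 0.565% in con-4c and 32.4 ± 0.955% in si-2c (mean ± SD, n = 3). Thus they held close to the same share in con-2c and si-4c, and a lower one in con-4c and si-2c. The negative genes took 2.23 ± 0.189% in con-2c, 2.36 ± 0.0447% in si-4c, 8.46 ± 0.0402% in con-4c and 6.10 ± 0.109% in si-2c. They were a small part of every library, and con-4c was above si-2c without overlap. Among the 6668 genes of at least 10 CPM, 18.7% were positive and 14.0% negative, and among the 1832 genes of at least 100 CPM 25.5% were positive and 7.26% negative.

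**Figure D2:**
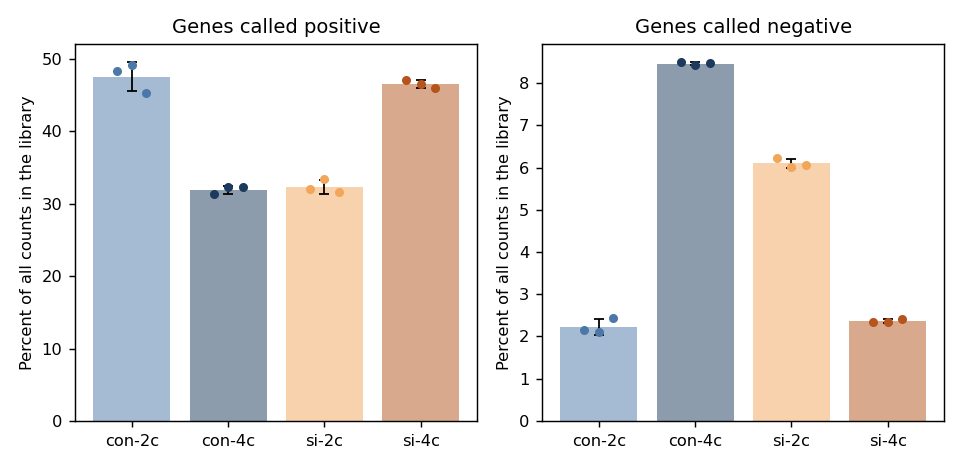
Percent of all counts in a library (vertical axis) taken by the genes called positive (left) and negative (right), by group; points are libraries, bars are means and whiskers are 1 SD. Positive genes held 47.6% of the counts in con-2c and 46.6% in si-4c against 32.4% in si-2c and 31.9% in con-4c, and negative genes had their highest share, 8.46%, in con-4c.

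The genes that the study itself singled out for maternal decay or genome activation lay on both sides. BTG4 (chr9:39253116-39281327), an adaptor that brings the CCR4-NOT deadenylase to maternal mRNAs for their removal, had a positive interaction of 2.59 ± 0.15 (SE, adjusted p = 4.57e-10). Its level was 20183, 20098 and 15431 CPM in con-2c, 20921, 19306 and 18786 in si-4c, 7150.1, 7991 and 7904 in con-4c and 7835, 8874 and 6982 in si-2c. The con-2c and si-4c libraries were all above the con-4c and si-2c libraries, and its stage difference was -1.27 in the control arm and 1.32 in the si-CCNB2 arm. EIF1AX (chrX:16429625-16449581), the translation initiation factor eIF1A and a marker of porcine genome activation, had a negative interaction of -3.55 ± 0.13 (SE, adjusted p = 7.36e-13). It stood at 35.2, 35.4 and 29.0 CPM in con-2c, 39.951, 38.6 and 41.7 in si-4c, 168, 182 and 172 in con-4c and 93.9, 89.7 and 84.6 in si-2c. The con-4c libraries were the highest, the si-2c libraries came next, and con-2c and si-4c were low. DPPA2 (chr13:150186833-150200612), a chromatin factor of early embryos and pluripotent cells, was measured at 37.6, 36.2 and 36.6 CPM in con-2c, 49.2, 35.0 and 35.1 in si-4c, 159, 184 and 171 in con-4c and 81.6, 93.2 and 87.7 in si-2c. Its order of groups was that of EIF1AX, with an interaction of -3.36 ± 0.16 (SE, adjusted p = 4.83e-11).

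The positive genes with the smallest p were abundant transcripts of diverse function, and all 10 fell from 2c to 4c in the control arm and rose in the si-CCNB2 arm. RGS2 (chr10:936836-940083), which speeds GTP hydrolysis by G protein alpha subunits, was measured at 717, 673 and 614 CPM in con-2c, 688, 669 and 684 in si-4c, 194, 195 and 193 in con-4c and 243, 248 and 259.5 in si-2c. No library of con-2c or si-4c overlapped with con-4c or si-2c, and the interaction was 3.23 ± 0.10 (SE, adjusted p = 1.42e-13). DYNC2LI1 (chr3:96656099-96703282), a light intermediate chain of the ciliary motor dynein-2, stood at 2388, 2365 and 1827 CPM in con-2c, 2222, 2075 and 1997 in si-4c, 440.1, 486 and 473 in con-4c and 371, 402 and 500.2 in si-2c. Its con-4c and si-2c libraries were alike in level and its interaction was 4.54 ± 0.17 (SE, adjusted p = 1.04e-12). OOEP (chr1:53006898-53007877), a member of the subcortical maternal complex that oocytes store for cleavage, was at 1263, 1435 and 1317 CPM in con-2c, 1071, 992 and 1017 in si-4c, 360.0, 375 and 378 in con-4c and 436, 487 and 397 in si-2c. Here si-4c stayed below con-2c without overlap, and the interaction was 3.07 ± 0.12 (SE, adjusted p = 1.71e-12). SRPX, a sushi-repeat protein and one of the most abundant transcripts of the group, averaged 7929 CPM in con-2c, 7148 in si-4c, 1709 in con-4c and 2144 in si-2c, an interaction of 3.95 ± 0.15 (SE, adjusted p = 1.61e-12).

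The other positive genes of this rank had interactions between 2.44 and 3.58. MOCS2, a subunit of molybdopterin synthase, averaged 79.2 CPM in con-2c, 84.5 in si-4c, 21.4 in con-4c and 26.6 in si-2c. PPA1, the cytosolic inorganic pyrophosphatase, averaged 65.2 CPM in con-2c, 70.5 in si-4c, 18.3 in con-4c and 21.1 in si-2c. MANBA, the lysosomal beta-mannosidase, averaged 812 CPM in con-2c, 733 in si-4c, 273 in con-4c and 343 in si-2c. All of them had con-4c and si-2c below con-2c and si-4c in every library. MRPS31, a protein of the small mitochondrial ribosomal subunit, averaged 186 CPM in con-2c, 191 in si-4c, 74.2 in con-4c and 66.1 in si-2c. HPF1, the partner of PARP1 that directs ADP-ribosylation to serine, averaged 401 CPM in con-2c, 356 in si-4c, 150.4 in con-4c and 174 in si-2c. DEPDC7 averaged 421 CPM in con-2c, 472 in si-4c, 172 in con-4c and 174 in si-2c. Each of these 10 genes kept its call under every alternative tried.

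The negative genes with the smallest p were low in con-2c and si-4c beside con-4c and si-2c. SLC31A1 (chr1:253868389-253893135), the high-affinity copper importer of the plasma membrane, was measured at 25.2, 33.0 and 27.5 CPM in con-2c, 18.3, 18.2 and 16.5 in si-4c, 804, 869 and 828 in con-4c and 292, 311 and 314 in si-2c. Its con-4c libraries were all above si-2c, and both were far above the other groups, an interaction of -8.98 ± 0.15 (SE, adjusted p = 3.61e-17). TMSB10 (chr3:59776236-59777252), a thymosin that binds actin monomers, stood at 12.8, 18.8 and 17.7 CPM in con-2c, 16.046, 12.7 and 13.3 in si-4c, 582, 563 and 538 in con-4c and 302, 304 and 250.1 in si-2c. Its interaction was -9.44 ± 0.20 (SE, adjusted p = 1.09e-15). EMG1 (chr5:63746326-63751469), a methyltransferase of small-subunit ribosomal RNA, was at 2.42, 2.73 and 3.29 CPM in con-2c, 2.49, 3.01 and 2.87 in si-4c, 106, 106 and 116 in con-4c and 41.3, 46.2 and 33.9 in si-2c. The lowest si-2c library was still above the highest con-2c and si-4c library, and the interaction was -9.13 ± 0.20 (SE, adjusted p = 1.79e-15). MSANTD5, named for a domain of the Myb/SANT kind, averaged 10.6 ± 2.61 CPM in con-2c, 0.817 ± 0.248 in si-4c, 2349 ± 179 in con-4c and 865 ± 88.7 in si-2c. No other gene of this rank reached its level in con-4c.

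The remaining negative genes of this rank were at lower levels than MSANTD5 and SLC31A1. TFAM (chr14:92261713-92279731), which packages and transcribes mitochondrial DNA, averaged 1.37 CPM in con-2c, 0.694 in si-4c, 139 in con-4c and 67.6 in si-2c. SUPT4H1, a subunit of the elongation factor DSIF, averaged 3.01 CPM in con-2c, 1.09 in si-4c, 422 in con-4c and 230.4 in si-2c. FAU, which encodes a small ribosomal subunit protein fused to a ubiquitin-like protein, averaged 2.68 CPM in con-2c, 1.18 in si-4c, 254 in con-4c and 109.8 in si-2c. In all 3 genes con-4c was above si-2c, and both were above the other groups without overlap. HIST1H2BD, a core histone gene, averaged 1.58 CPM in con-2c, 0.591 in si-4c, 68.1 in con-4c and 41.7 in si-2c. Reads of near-identical histone genes may be split between them. RSRP1, an arginine- and serine-rich protein, averaged 3.44 CPM in con-2c, 1.95 in si-4c, 55.6 in con-4c and 47.9 in si-2c. TDG (chr5:80473233-80492295), the thymine DNA glycosylase of active DNA demethylation, averaged 0.348 CPM in con-2c, 0 in si-4c, 53.5 in con-4c and 22.005 in si-2c. Its si-4c libraries held no count, so its si-4c level was at least 746-fold lower than that of si-2c at a floor of 3 counts over the group. Each of these 10 genes kept its call under every alternative tried.

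**Figure D3:**
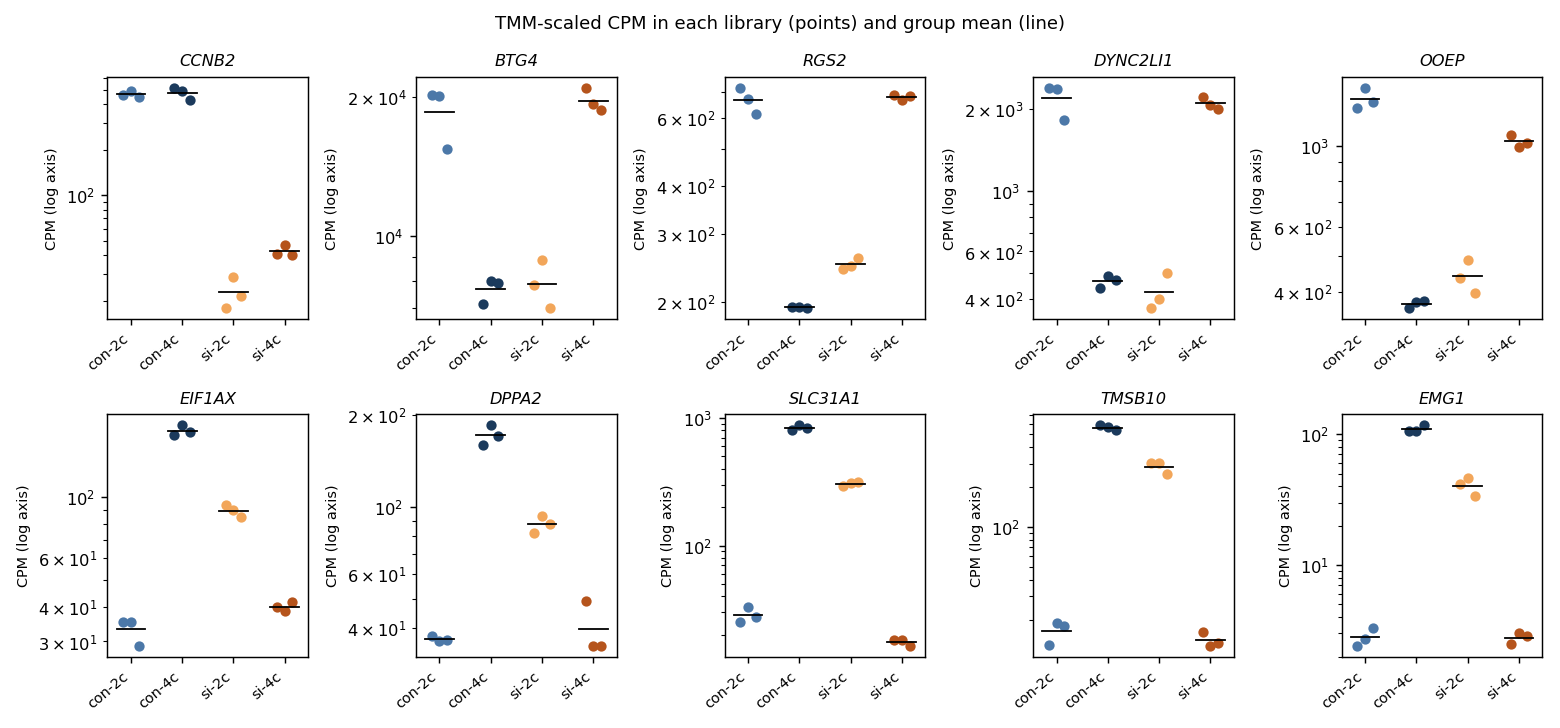
Level of 10 genes in each library (vertical axis, TMM-scaled CPM, log axis) by group; points are libraries and lines are group means. BTG4, RGS2, DYNC2LI1 and OOEP were high in con-2c and si-4c, EIF1AX, DPPA2, SLC31A1, TMSB10 and EMG1 were high in con-4c and intermediate in si-2c, and CCNB2 was low in both si-CCNB2 groups.

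Gene lists by function show where the calls of each sign fell. They are described by their counts and medians beside those of all genes tested (9.87% positive, 22.5% negative, median -0.23), with no set test. The lists had no part in the choice of calls, but they were written with earlier results of these data known. Of each list, the called members with the smallest p were named by rule, and further members were chosen after their values were seen.

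Genes of the oocyte held more positive than negative calls. Of 36 oocyte and maternal effect genes tested, 10 were positive and 2 negative, with a median of 0.74 (library totals: 8 positive, 6 negative, median 0.10). Beside RGS2, SRPX and OOEP, the positive members were OOSP2 (2.81), an oocyte-secreted protein, ZP4 (1.84), a glycoprotein of the zona pellucida, H1-8 (1.93), the oocyte linker histone, ZAR1L (1.60), ACCSL (2.07), PABPN1L (2.04) and SOHLH2 (1.28). Others missed the threshold, among them BMP15 (-0.38) and GDF9 (0.85), the growth factors of the oocyte, MOS (0.43), the kinase of meiotic arrest, and PADI6 (-0.11). The negative members were LSM14B (-2.72) and ZFP57 (-9.92), both at low levels. The 10 oocyte and embryo markers, which share members with this list, had a summed level of 23146 ± 2852 CPM in con-2c, 23752 ± 1105 in si-4c, 10550.0 ± 447 in con-4c and 11017 ± 917 in si-2c. BTG4 made up most of this sum, with means of 18571 CPM in con-2c and 7682 in con-4c. Of the markers 3 were positive (BTG4, OOEP and ZP4) and 0 negative by edgeR, and with library totals 3 and 1.

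The cell cycle machinery, to which CCNB2 belongs, held more positive than negative members with TMM scaling. Of 47 mitotic cyclins, kinases and subunits of the anaphase-promoting complex (APC/C) tested, 12 were positive and 5 negative, with a median of 0.39 that turned to -0.28 with library totals (5 positive, 7 negative). CCNB1 (1.68), the other main B-type cyclin, was positive, as were MAD2L1 (2.38) and BUB1 (1.83) of the spindle checkpoint, ANAPC10 (2.40), CDC16 (1.40) and CDC27 (1.35) of the APC/C, and CDC20 (1.46), which activates it. GMNN (chr7:19585968-19595346), the inhibitor of replication licensing geminin, averaged 357 CPM in con-2c, 376 in si-4c, 169 in con-4c and 189.6 in si-2c, an interaction of 2.06 ± 0.12 (SE, adjusted p = 5.51e-10). CKS2, a small subunit that binds cyclin-dependent kinases, ran the other way at 574 CPM in con-2c, 559 in si-4c, 2013 in con-4c and 1177 in si-2c, an interaction of -2.88 ± 0.13 (SE, adjusted p = 1.17e-11). WEE1 (-7.06), MAD1L1 (-10.67), CDC23 (-6.80) and BIRC5 (-1.08) were also negative, and CDK1 (-0.44) and PLK1 (-0.19) were not called. For DNA replication, 13 of 45 tested were positive and 3 negative, with a median of 0.27 that turned to -0.39 with library totals (8 positive, 10 negative). PCNA (2.46), the sliding clamp, TYMS (2.74 ± 0.13 (SE, adjusted p = 2.57e-11)), which makes thymidylate, and ORC5 (2.11) and ORC6 (1.57) of the origin recognition complex were positive. ORC1, of the same complex, was negative at -2.19 ± 0.13 (SE, adjusted p = 4.52e-10).

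Among repair and cytoskeleton genes the share called negative lay below the 22.5% of all genes tested with TMM scaling. Of 55 DNA damage response and repair genes, 10 were positive and 6 negative, with a median of 0.01 (library totals: 3, 13 and -0.64). XPA, which verifies lesions in nucleotide excision repair, averaged 91.5 CPM in con-2c, 85.8 in si-4c, 39.954 in con-4c and 53.8 in si-2c, an interaction of 1.87 ± 0.10 (SE, adjusted p = 2.47e-10). CHEK2, a checkpoint kinase, averaged 7.69 CPM in con-2c, 7.49 in si-4c, 44.3 in con-4c and 16.6 in si-2c, an interaction of -3.67 ± 0.21 (SE, adjusted p = 3.41e-10). Of 48 tubulins and kinesins 4 were positive and 3 negative (library totals: 1 and 12). KIF18A, a kinesin of chromosome alignment, had an interaction of 1.41 ± 0.18 (SE, adjusted p = 6.41e-06) and KIF20B, a kinesin of cytokinesis, one of 1.21 ± 0.16 (SE, adjusted p = 6.67e-06); with library totals these were 0.74 and 0.55 and no longer called. Of 62 actin cytoskeleton genes 5 were positive and 7 negative (library totals: 0 and 22), TMSB10 and TPM3, a tropomyosin, being negative with the smallest p. With library totals, under which 33.6% of all genes tested were negative, the shares were 23.6% of the repair genes, 25.0% of the tubulins and kinesins and 35.5% of the actin genes, so that the actin genes were no longer below all genes.

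Mitochondrial and proteasome subunits also held more positive than negative members with TMM scaling, and fewer with library totals. Of 66 mitochondrial ribosomal proteins 18 were positive and 10 negative, with a median of 0.36 that turned to -0.29 with library totals (8 positive, 16 negative). MRPS31 above was positive, and MRPL50 was negative at -3.73 ± 0.16 (SE, adjusted p = 5.70e-12). Of 71 subunits of oxidative phosphorylation 22 were positive and 10 negative, with a median of 0.40 that turned to -0.23 (6 positive, 13 negative). COX7A2L, which joins respiratory complexes into supercomplexes, averaged 201 CPM in con-2c, 217 in si-4c, 63.3 in con-4c and 86.1 in si-2c, an interaction of 2.9978 ± 0.14 (SE, adjusted p = 2.26e-11). NDUFA2, a subunit of complex I, averaged 6.17 CPM in con-2c, 4.72 in si-4c, 95.8 in con-4c and 66.3 in si-2c, an interaction of -7.77 ± 0.21 (SE, adjusted p = 2.11e-14). Of 36 proteasome subunits 10 were positive and 5 negative, with a median of 0.33 that turned to -0.32 (6 positive, 9 negative). PSMB1 (2.77 ± 0.13 (SE, adjusted p = 3.21e-11)) and PSMB3 (1.99 ± 0.12 (SE, adjusted p = 5.75e-10)), beta subunits of the core particle, were positive. All these medians lay above that of all genes by 0.57 to 0.64 with TMM and by 0.56 to 0.65 with library totals, but by 0.31 to 0.37 with a filter of at least 10 CPM in 3 libraries and by 1.13 to 1.19 with DESeq2.

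Cytosolic ribosomal proteins were mostly on the negative side. Of 64 tested 43 were negative (67.2%) and 2 positive, with a median interaction of -2.42 from a median stage difference of 1.48 in the control arm and -0.74 in the si-CCNB2 arm (library totals: 49 negative, 1 positive, median -3.07). RPS19 (chr6:50003198-50010135) stood at 0.573, 0.535 and 0.492 CPM in con-2c, 1.23, 0.521 and 0.777 in si-4c, 40.7, 36.9 and 40.9 in con-4c and 14.1, 14.7 and 14.6 in si-2c. Its con-4c libraries were all above si-2c, and con-2c and si-4c were close to 0, an interaction of -10.30 ± 0.30 (SE, adjusted p = 4.29e-14). RPL9 (-11.86), RPS26 (-10.48), RPL23A (-8.92) and RPS9 (-6.89) were among the larger differences, RPL5 (0.90), RPL7A (-0.05) and RPLP0 (-0.75) were not called, and RPS24 (2.24) and RPL22 (1.32) were positive. Ribosomal protein genes have many near-identical pseudogene copies, so the counts of single members are uncertain. The summed level of the list was 4002 ± 141 CPM in con-2c, 3504 ± 105 in si-4c, 4583 ± 90.9 in con-4c and 3314 ± 299 in si-2c, so the sum, to which RPS24 contributed most, did not follow the median member.

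Genes of ribosome assembly held a larger share of negative calls than all genes. Of 62 ribosome biogenesis genes 23 were negative (37.1%) and 4 positive, with a median of -0.42 (library totals: 29, 3 and -1.07). This median lay 0.19 below that of all genes, but 0.34 above it with DESeq2 and 0.37 above it without a filter on low counts. Beside EMG1, FBL, the methyltransferase fibrillarin of the nucleolus, averaged 0.853 CPM in con-2c, 0.851 in si-4c, 37.4 in con-4c and 12.2 in si-2c, an interaction of -9.29 ± 0.36 (SE, adjusted p = 1.73e-12). Of 56 translation factors 15 were negative (26.8%) and 7 positive (12.5%), shares near those of all genes, with a median of 0.01 that lay 0.24 above that of all genes (library totals: 23, 2 and -0.65). This distance was -0.07 with the filter of at least 10 CPM in 3 libraries and 0.64 with DESeq2. EIF6, which keeps the large ribosomal subunit from joining too early, averaged 19.7 CPM in con-2c, 18.4 in si-4c, 143 in con-4c and 68.0 in si-2c, an interaction of -4.74 ± 0.19 (SE, adjusted p = 4.21e-12).

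The transcription machinery was split. Of 27 RNA polymerase subunits 10 were negative and 4 positive (library totals: 16 and 0). POLR2B, the second largest subunit of RNA polymerase II, averaged 6.05 CPM in con-2c, 7.05 in si-4c, 68.4 in con-4c and 29.2 in si-2c, an interaction of -5.55 ± 0.19 (SE, adjusted p = 3.91e-13). POLR2C, of the same enzyme, was positive at 1.55 ± 0.12 (SE, adjusted p = 1.55e-08), and with library totals its interaction was 0.89 and not called. Of 30 general transcription factors and TBP-associated factors 7 were negative and 8 positive (library totals: 10 and 7), GTF2F1 of TFIIF (-7.74 ± 0.28 (SE, adjusted p = 1.04e-12)) and TAF1D (-3.88 ± 0.17 (SE, adjusted p = 1.01e-11)) being negative. Of 29 Mediator subunits 9 were negative and 4 positive (library totals: 12 and 1), with MED31 (-6.91 ± 0.19 (SE, adjusted p = 2.18e-14)) and MED8 (-4.84 ± 0.21 (SE, adjusted p = 1.01e-11)) negative. Of 67 splicing factors 21 were negative and 11 positive (library totals: 34 and 1). PRPF19, a ubiquitin ligase of the spliceosome, averaged 59.6 CPM in con-2c, 49.5 in si-4c, 197 in con-4c and 158 in si-2c, an interaction of -3.41 ± 0.11 (SE, adjusted p = 9.57e-14). PRPF38A, needed to activate the spliceosome, averaged 49.6 CPM in con-2c, 45.2 in si-4c, 235 in con-4c and 120.0 in si-2c, an interaction of -3.65 ± 0.13 (SE, adjusted p = 5.45e-13). The 231 zinc finger genes with a ZNF symbol held 40 negative (17.3%) and 21 positive members (9.09%), no more than the shares of all genes (library totals: 69 and 7). ZNF622 had no count in con-2c, and was at least 1138-fold higher in con-4c at the floor of 3 counts over the group, and ZNF131 averaged 3.47 CPM in con-2c, 3.39 in si-4c, 34.3 in con-4c and 17.7 in si-2c.

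Factors of pluripotency and of the early embryo, most of them transcription factors, were mostly negative, and EIF1AX and DPPA2 above are among them. Of 25 tested 17 were negative (68.0%) and 2 positive, with a median of -3.55 (library totals: 20, 0 and -4.21). With the filter of at least 10 CPM in 3 libraries 7 of 13 were negative and the median was -1.23. NANOG, a core factor of pluripotency, had no count in the con-2c libraries, 0, 0 and 2 counts in si-4c, 1827, 2084 and 1871 in con-4c and 1041, 998 and 1162 in si-2c. Its con-4c level was at least 2060.0-fold above con-2c at the floor of 3 counts over the group. KLF17 (-16.33), KLF4 (-4.13), MYC (-11.91), NR5A2 (-9.73), NFYA (-3.10) and SOX2 (-7.84), the last at no more than 1.64 CPM in any group, were negative too. DPPA5 (1.42) and YAP1 (1.42) were the positive members, and OTX2 (0.94), LIN28A (-0.41) and GATA4 (0.32) were not called. The summed level of the list did not follow the median member: it was 5569 ± 581 CPM in con-2c, 4992 ± 122.6 in si-4c, 4129 ± 163 in con-4c and 3295 ± 256 in si-2c, most of it from DPPA5.

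Of 48 histone and DNA methylation enzymes 14 were negative (29.2%) and 2 positive (4.17%), beside 22.5% and 9.87% of all genes (library totals: 23 and 0). The summed level of the list did not follow these calls. It was 76625 ± 9712 CPM in con-2c, 72780 ± 851 in si-4c, 50430 ± 1211 in con-4c and 42477 ± 3951 in si-2c. Beside TDG, NSD1, a methyltransferase of histone lysine, averaged 39.0 CPM in con-2c, 44.5 in si-4c, 325 in con-4c and 187 in si-2c, an interaction of -5.13 ± 0.13 (SE, adjusted p = 8.76e-15). Of 63 genes of mRNA deadenylation and decay 17 were negative (27.0%) and 5 positive (7.94%) (library totals: 23 and 1), shares close to those of all genes. EXOSC10, the nuclear exonuclease of the RNA exosome, averaged 4.47 CPM in con-2c, 3.66 in si-4c, 96.2 in con-4c and 42.6 in si-2c, an interaction of -7.96 ± 0.20 (SE, adjusted p = 6.08e-15). EXOSC1, in the cap of the exosome, averaged 31.8 CPM in con-2c, 38.3 in si-4c, 222 in con-4c and 108 in si-2c, an interaction of -4.29 ± 0.12 (SE, adjusted p = 3.62e-14).

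Metabolic, apoptotic, transport and chaperone genes were called in both directions. Of 35 genes of glycolysis and the citrate cycle 13 were negative and 4 positive (library totals: 17 and 2). HK2, a hexokinase, had an interaction of -2.85 ± 0.18 (SE, adjusted p = 1.37e-09) and MDH1, the cytosolic malate dehydrogenase, one of 2.49 ± 0.24 (SE, adjusted p = 1.90e-07). Of 24 BCL2 family genes and caspases 8 were negative and 4 positive (library totals: 8 and 3), and the negative members included the survival factor MCL1 (-6.77 ± 0.44 (SE, adjusted p = 1.53e-09)) and its antagonist PMAIP1 (-5.22 ± 0.38 (SE, adjusted p = 6.23e-09)). Of 57 nuclear pore and transport genes 10 were negative and 9 positive (library totals: 23 and 3). NXF1, the mRNA export receptor, averaged 4.75 CPM in con-2c, 4.14 in si-4c, 29.0 in con-4c and 24.1 in si-2c. NUP37, of the pore scaffold, averaged 362 CPM in con-2c, 433 in si-4c, 141 in con-4c and 152 in si-2c. Of 71 chaperones 10 were negative and 9 positive (library totals: 19 and 4), with the co-chaperones DNAJC2 (2.38 ± 0.13 (SE, adjusted p = 2.95e-10)) and DNAJC19 (2.55 ± 0.15 (SE, adjusted p = 4.96e-10)) positive.

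**Figure D4:**
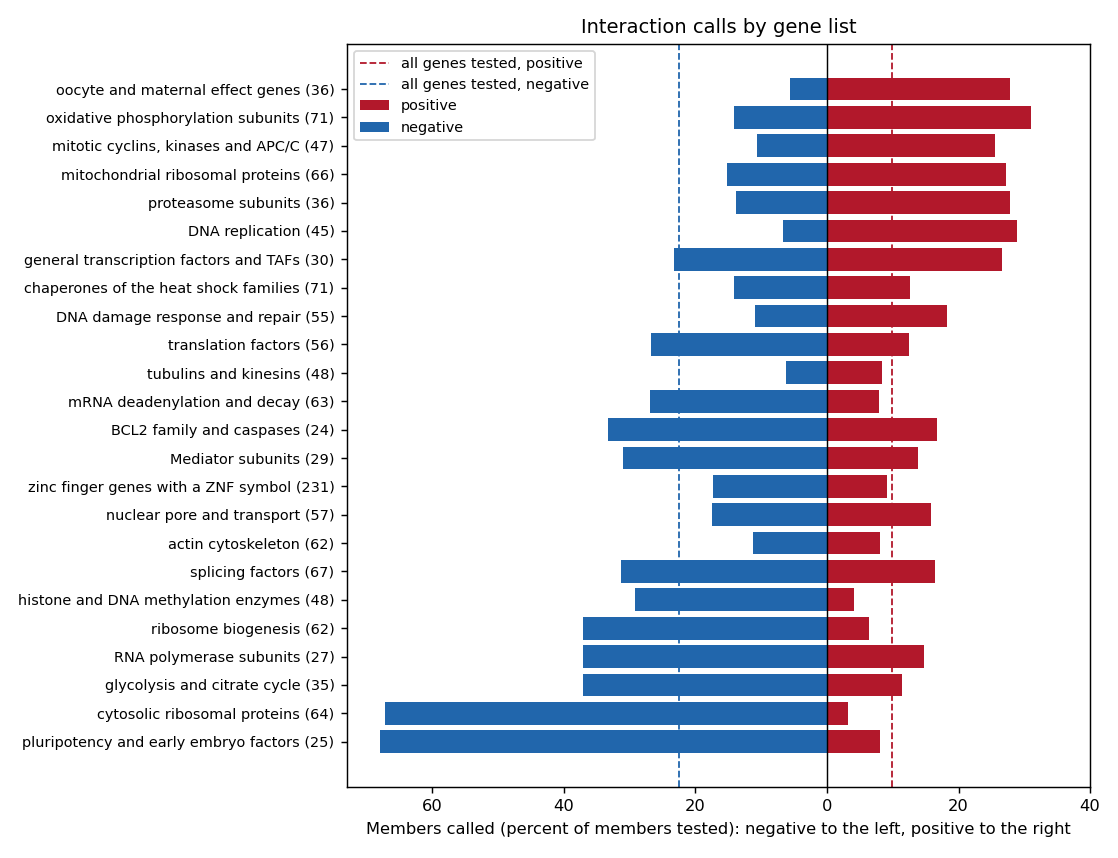
Percent of the tested members of each functional list, cell markers left out, called negative (bars to the left) and positive (bars to the right), with the number tested in brackets; dashed lines mark the shares of all genes tested, 22.5% and 9.87%. Cytosolic ribosomal proteins and pluripotency factors reach furthest to the left, and oxidative phosphorylation and DNA replication have the longest bars to the right.

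Markers of other cells that can adhere to embryos were far below the oocyte markers in summed level, and several had a negative interaction. The 13 cumulus and granulosa cell markers in the table summed to 2.42 to 3.33 CPM in con-2c, 1.82 to 2.85 in si-4c, 8.75 to 10.7 in con-4c and 5.48 to 9.51 in si-2c. Of the 8 that passed the filter on low counts, 5 were negative and 0 positive by edgeR. Rare genes pass that filter through the groups where they are higher, so this share is not read as a result. Without the filter 5 of 13 were negative (38.5%), beside 16.1% of all genes. HAS2, CYP11A1 and FOXL2 were at 0 in con-2c, si-2c and si-4c. The 8 sperm and spermatid markers in the table summed to between 7.52 and 17.1 CPM over the 12 libraries, most of it from ODF2, which was not called. Of 4 tested 3 were negative (4 with library totals, ODF2 among them), and without the filter 3 of 8 (37.5%). The oocyte markers of the same kind reached between 10035 and 24976 CPM. Whether cells of these kinds take part in any interaction was not tested.

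Few genes had the same stage difference in both arms. This was asked as an averaged stage difference at an adjusted p below 0.05, both arms of 1 sign, and a 95% interval of the interaction inside -1 to 1 on the log2 scale, a condition on the interval that 21.6% of all genes met. It held for 64 genes higher at 4c (0.356%) and 31 lower (0.172%). The differences were small: the median averaged difference was 0.30 for the higher genes and -0.31 for the lower ones. Of these 95 genes, 31 still had an interaction at an adjusted p below 0.05, smaller than the margin. By the quasi-likelihood test 39 of the 95 had an unadjusted p below 0.05 in both arms. The control arm had the difference of larger size in 45 of the higher and 22 of the lower genes. At this adjusted p alone the averaged difference was higher for 405 genes (2.25%) and lower for 143 (0.795%), 548 in all (3.05%), against 3275 positive (18.2%) and 4907 negative (27.3%) for the interaction at the same p. With a minimum fold of 1 log2 unit, the averaged difference was called higher for 37 genes (0.206%) and lower for 29 (0.161%), and 62 of these 66 were called in the interaction as well. The membership depended on the processing: library totals kept 20 of the 95 genes, and leaving out 1 library gave between 24 and 128 higher and 10 and 61 lower genes, the most without the third si-2c library (128 and 61). The genes named here are therefore descriptions of this fit.

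Some of them were at an adjusted p below 0.05 in each arm by itself, 14 higher and 6 lower, a group singled out after the data were seen. With library totals 2 of these 20 genes passed in both arms, with the 10 CPM filter 9, with the replicate block 16, and with DESeq2 and limma-voom all 20. With 1 library left out 8 to 17 of them passed, the fewest without the first si-4c library (8) and without the third con-2c or the first si-2c library (10 each). VMP1, an endoplasmic reticulum protein of autophagosome formation, stood at 32.7, 29.3 and 24.7 CPM in con-2c, 39.2, 43.2 and 36.2 in si-4c, 39.3, 43.7 and 36.1 in con-4c and 25.3, 28.8 and 28.3 in si-2c. The 4c libraries were above the 2c libraries in both arms, and the stage differences were 0.46 and 0.52 (control and si-CCNB2 arm, log2) with an interaction of 0.07 ± 0.17 (SE, adjusted p = 0.788). NOP58 (chr15:105893589-105930458), a core protein of the box C/D ribonucleoproteins that guide methylation of ribosomal RNA, was at 96.8, 82.6 and 76.1 CPM in con-2c, 99.97, 95.1 and 82.7 in si-4c, 121, 130.2 and 127 in con-4c and 76.3, 72.7 and 76.6 in si-2c, with stage differences of 0.57 and 0.30. RHEBL1 (chr5:15094398-15097785), a small GTPase related to RHEB, averaged 114 CPM in con-2c, 132 in si-4c, 177 in con-4c and 105 in si-2c, with stage differences of 0.63 and 0.33. SIRT1, a deacetylase, averaged 25.2 CPM in con-2c, 33.4 in si-4c, 33.3 in con-4c and 24.2 in si-2c, with stage differences of 0.40 and 0.47. TPX2, a spindle assembly factor, averaged 1697 CPM in con-2c, 1729 in si-4c, 2017 in con-4c and 1303 in si-2c, with stage differences of 0.25 and 0.41. With library totals none of the 14 higher genes passed in both arms.

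Among the lower genes the largest difference was in ENSSSCG00000036186, which has no symbol in the table. It stood at 13.4, 11.5 and 12.5 CPM in con-2c, 3.15, 4.31 and 4.84 in si-4c, 5.43, 5.90 and 3.77 in con-4c and 8.06, 10.8 and 8.22 in si-2c. The 4c libraries were below the 2c libraries in both arms, the stage differences were -1.30 and -1.14, and its interaction had a 95% interval from -0.45 to 0.78. It was the 1 gene called in the averaged difference whose interval lay inside the margin, and it passed in both arms under all 18 alternatives. CPSF4, a subunit of the cleavage and polyadenylation complex, averaged 5.68 CPM in con-2c, 2.30 in si-4c, 2.89 in con-4c and 4.04 in si-2c, with stage differences of -0.97 and -0.81, and was the other gene kept with library totals. CCNY (chr10:57929484-58057964), a membrane-bound cyclin, was at 54.4, 48.6 and 59.6 CPM in con-2c, 49.7, 57.1 and 53.5 in si-4c, 42.8, 41.6 and 44.9 in con-4c and 75.8, 63.9 and 64.7 in si-2c. Its stage differences were -0.33 and -0.35 and its interaction -0.02 ± 0.14 (SE, adjusted p = 0.931). DET1 (chr1:191263449-191284973), a component of a CUL4 ubiquitin ligase, averaged 212 CPM in con-2c, 203 in si-4c, 177 in con-4c and 249 in si-2c, with stage differences of -0.26 and -0.29. WBP2, a WW domain-binding protein, averaged 5.44 CPM in con-2c, 3.27 in si-4c, 3.26 in con-4c and 5.84 in si-2c, with stage differences of -0.74 and -0.83.

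The other genes named by rule had a stage difference of smaller size in the si-CCNB2 arm than in the control arm, except JAZF1. Among the higher genes, the stage differences were 0.86 and 0.28 for MRPL46, a mitochondrial ribosomal protein, 0.71 and 0.14 for CIART, a circadian repressor, 0.75 and 0.07 for HENMT1, the methyltransferase of piRNA ends, 0.44 and 0.15 for MAP1LC3B, a marker of autophagosomes, and 0.69 and 0.27 for NFYB, a subunit of the CCAAT-binding factor. Among the lower genes they were -0.53 and -0.14 for DDA1, a partner of DET1, -0.53 and -0.18 for UBE2A, a ubiquitin-conjugating enzyme, -0.48 and -0.04 for GAB1, a signalling adaptor, -0.21 and -0.31 for JAZF1, -0.47 and -0.28 for SLC36A3, of a family of amino acid transporters, and -0.46 and -0.11 for TM9SF1. Of these 11 genes 8 also had an interaction at an adjusted p below 0.05 by edgeR, inside the margin, and only JAZF1 passed this p in the si-CCNB2 arm by itself, so for the others the same difference means a difference within the margin. Of the lists, ribosome biogenesis held 4 of its 62 tested members among the higher genes, beside 0.356% of all genes tested. Mitochondrial ribosomal proteins, splicing factors and ZNF genes held 2 each, and no list held a lower one, beside 0.172% of all genes.

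**Figure D5:**
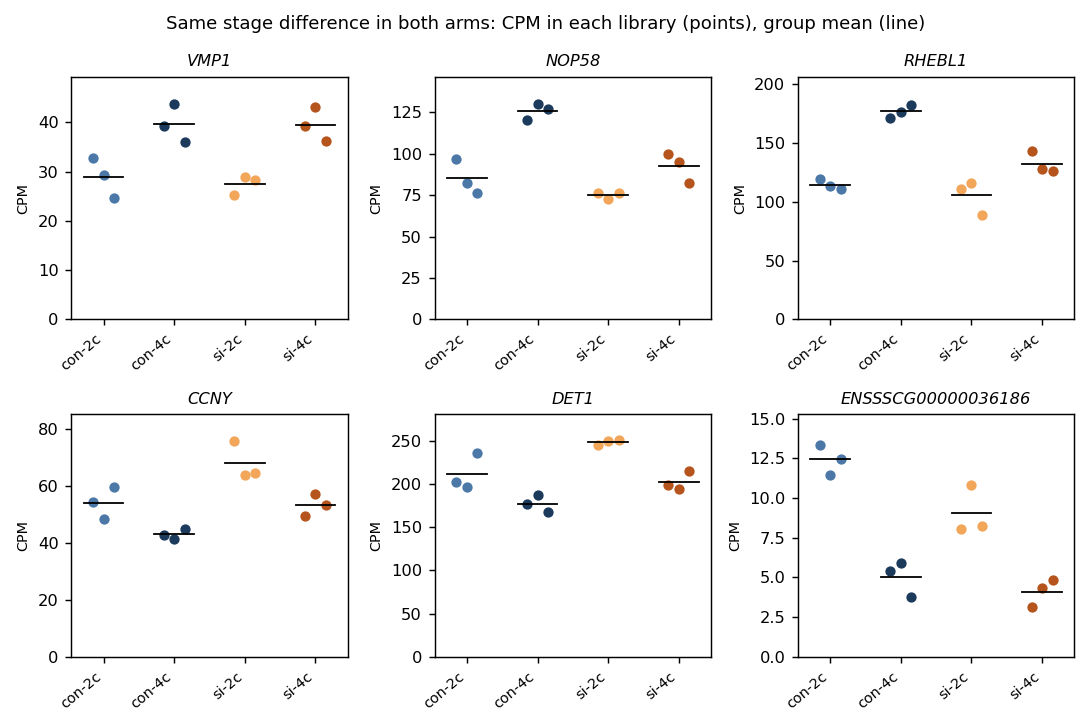
Level of 6 genes with the same stage difference in both arms (vertical axis, TMM-scaled CPM) in each library by group; points are libraries and lines are group means. VMP1, NOP58 and RHEBL1 step up and CCNY, DET1 and ENSSSCG00000036186 step down from 2c to 4c in both arms, and only ENSSSCG00000036186 changes more than 2-fold.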

How the data were processed

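RNA of pooled porcine embryos was copied with an oligo(dT) primer and template switching, amplified by PCR and sequenced in pairs. The table deposited by the authors holds whole-number counts of 29329 Ensembl genes in 12 libraries, without normalization. The submitters' processing notes name cutadapt 1.9, HISAT2 2.2.1, StringTie 2.1.6, DESeq2, edgeR and the build Sscrofa11.1, without their order. Strand use, annotation release and the handling of multi-mapped reads are not given in the sources used here, so overlapping, antisense and near-identical genes are uncertain. Reads carried no molecular identifiers, and the replicate libraries set the precision.

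The test was the quasi-likelihood test of edgeR 4.0.16 (R 4.3.3) on the 17995 genes that passed filterByExpr, with TMM scaling and a group-means model over all libraries (biological coefficient of variation 27.3%). Standard errors came from the log2 contrast and its F statistic, and intervals used the t distribution. CPM values used the same TMM factors and are given as mean ± SD with n = 3 or per library. Groups came from the library titles. Replicate counts were too far apart to be copies (chi-square over degrees of freedom 7.27 to 38.7). Symbols came from the table, and positions from RefSeq Sscrofa11.1 by unique symbol. Sequences of the small interfering RNAs came from the supplement of the study.

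Named by rule were CCNB2, BTG4, EIF1AX and DPPA2, then genes with a unique symbol and a group mean of at least 10 CPM: the 10 positive and 10 negative genes with the smallest p, 2 called members of each list, and the 8 higher and 8 lower genes with the same stage difference within the margin. The contrast, the lists and the rules were chosen with earlier results of these data known. Alternatives were library totals, DESeq2 1.42.0, limma-voom (limma 3.58.1), other filters and thresholds, a replicate block and leaving out each library. The scripts were tested on simulated data.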

Additional observations from a re-analysis of the deposited data

Results flagged for a closer look

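The interaction is itself a test of whether the stage difference differs between the arms, so its counts and the genes named first are listed as differences between groups. By the quasi-likelihood test of edgeR, 1777 genes had a stage difference that was larger in si-CCNB2 than in control libraries and 4050 one that was smaller. CCNB2, past the adjusted p and below the fold threshold, was listed at 0.88 on the log2 scale (adjusted p = 7.89e-04), with a stage difference of 0.03 in the control arm and 0.91 in the si-CCNB2 arm.

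The positive interactions among the genes named first, on the log2 scale, were 2.59 for BTG4, 3.23 for RGS2, 4.54 for DYNC2LI1, 3.95 for SRPX, 3.07 for OOEP, 3.55 for MOCS2, 2.73 for DEPDC7, 2.67 for MANBA, 2.86 for MRPS31, 2.44 for HPF1 and 3.58 for PPA1. The negative ones were -3.55 for EIF1AX, -3.36 for DPPA2, -17.83 for MSANTD5, -8.98 for SLC31A1, -13.26 for TFAM, -9.44 for TMSB10, -8.62 for RSRP1, -13.09 for FAU, -9.13 for EMG1, -11.55 for HIST1H2BD and -14.83 for SUPT4H1. TDG had a fitted value of -19.82, which depends on the prior count because its si-4c libraries held no count, and with that group at a floor of 3 counts its interaction was -16.81. In each of these genes the libraries of the stages did not overlap in either arm, with the exception of CCNB2 in the control arm. An exchange of the stage labels in one arm and a knockdown effect cannot be told apart from these counts for any of them.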

How the results depend on the processing

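The interaction counts held their order, more negative than positive genes, under every alternative. Positive calls were 574 with library totals, 910 with a filter of at least 10 CPM in 3 libraries, 3275 with no minimum fold and 314 at the stricter threshold (adjusted p under 0.01, absolute log2 of 2 or more), and negative calls were 1134 with that filter and 2467 at that threshold. Leaving out 1 library gave 1725 to 1807 positive and 3960 to 4316 negative genes. Averaged stage differences called higher and lower were 23 and 13 with limma-voom, 71 and 70 without a filter on low counts, 13 and 17 with the 10 CPM filter, 405 and 143 with no minimum fold, and 22 to 49 and 16 to 33 with 1 library left out. Genes with the same stage difference, higher and lower, were 7 and 76 with library totals, 144 and 80 with DESeq2, 38 and 11 with a margin of 1.5-fold, 84 lower with the 10 CPM filter, and 24 to 128 and 10 to 61 with 1 library left out. Genes that went opposite ways in the arms numbered 2624 to 4517 and those that went the same way 16 to 27 over the alternatives with all libraries, and 3326 to 3848 and 11 to 36 with 1 library left out (11 without the first si-4c library, 36 without the third si-2c library). For the sum of the stage differences, genes called higher and lower were 112 and 61 with library totals, 140 and 28 with limma-voom and 223 and 104 without a filter on low counts. With 1 library left out they were 125 to 173 and 30 to 65. The cause of these shifts was not tested.

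Replicate numbers did not pair the libraries: deviations of same-numbered libraries correlated between -0.0495 and 0.0290 over 18 pairs, and 3 of 12 libraries correlated best with their own number. With the replicate block, 1748 genes were positive and 3837 negative, averaged calls were 24 higher and 19 lower, and genes with the same stage difference 35 and 16. Over the 63 genes named for their interaction and the 18 alternatives in scaling, tool, filter, block and libraries, 1130 values kept their call, 3 lost it (POLR2C, KIF18A and KIF20B with library totals) and 1 gained it (CCNB2 without the second si-2c library). At the stricter threshold 5 lost the call (KIF18A, KIF20B, POLR2C, PSMB3 and XPA), and with no minimum fold CCNB2 gained it. Of the 16 genes named for the same stage difference, 49 of their values lost the call and 239 kept it. Genes with few counts in a group limit the precision of large negative interactions. The summed stage differences, the count by arms, the centring of list medians the grouping by symbol and the thresholds of named genes were added after seeing the data.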

Other observations

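Families of genes that share a symbol stem give a further view of functions, although some of their members are also on the lists above. The 193 stems with at least 8 genes tested were counted, and those below picked, after the data were seen and without a test. Counts of positive and negative genes are read beside the 9.87% and 22.5% of all genes tested, and those with library totals beside 3.19% and 33.6%. Among trafficking genes, 6 of 9 COMMD genes, partners of the endosomal retriever and cullin machinery, were positive and 0 negative (median 1.20, library totals: 3 and 0), 9 of 32 VPS genes of endosomal sorting were positive and 2 negative (median 0.35, library totals: 4 and 4), and 5 of 13 IFT genes of ciliary transport were positive and 1 negative (median 0.68, library totals: 1 and 3). Some other trafficking stems did not share this: 5 of 60 RAB small GTPases were positive and 9 negative, 2 and 7 of 26 TBC genes, 0 and 2 of 8 TMED genes, and 0 and 0 of 10 EXOC genes of the exocyst by edgeR. With library totals the VPS and IFT genes no longer held more positive than negative members. The PSMA genes, which encode alpha subunits of the proteasome core, held 5 positive and 0 negative members of 8 (median 1.33, library totals: 3 and 0), which the PSMB genes of the core did not share at 2 and 2 of 8 (median -0.40, library totals: 2 and 3), nor the PSMD genes of the regulatory particle at 3 and 2 of 14 (median -0.04, library totals: 1 and 4).

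On the negative side, 8 of 11 SRSF genes, splicing factors rich in serine and arginine, were negative and 0 positive (median -1.80). The RRP genes of ribosomal RNA processing held 5 negative of 8 (median -3.59), only 2 of the 8 reaching a group mean of 10 CPM. The UTP genes, also of ribosomal RNA processing, did not share this, at 4 positive and 1 negative of 9 (median -0.16, library totals: 3 and 3). The EMC genes of the membrane protein insertase of the endoplasmic reticulum held 5 negative and 1 positive of 8 (median -1.68). Of 10 HSPA genes, chaperones of the heat shock protein family, 5 were negative, of 16 KDM genes, histone lysine demethylases, 6, and of 14 KLF transcription factors 6, with 0 positive members in each. The PCDH protocadherins were negative in 8 of 9 cases, but only 1 of them reached a group mean of 10 CPM. With library totals each of these stems held at least as many negative members.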
